A study of Homo sapiens with 13 samples.

Results

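The comparison set cells that carried both CD34 and CD41 at a low level against cells of the same low CD34 level that lacked CD41, both sorted on day 7 of blood differentiation. Genes counted as members when their normalized levels differed at least 2-fold between the 2 arrays and the brighter array had detected them (detection p below 0.01). Of 13851 genes detected on at least 1 array of the pair, 1311 met this rule, 418 of them higher and 893 lower in the CD34lo CD41lo cells. These are 3.02% and 6.45% of the genes tested. Because the members were chosen by this difference, its values are given as a description without a test.

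CD41 is the alpha chain of the fibrinogen receptor of platelets, and its gene, ITGA2B, is also switched on in the earliest blood cells of the embryo before platelets exist. CD34 marks both endothelium and early blood cells. Embryonic blood cells arise from a specialised, blood-forming endothelium, and the gain of CD41 is widely used to mark cells that have entered the blood lineage. The first wave of such cells makes primitive red cells, megakaryocytes and macrophage-like cells.

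All 13 Illumina arrays came from 1 RUNX1C GFP/w reporter line, RUNX1C being the RUNX1 isoform made from the distal promoter. The line was built in HES3, which is a long-established line of human embryonic stem cells, and the labels name no other line. The parent line was grown on mouse feeder cells in medium with KOSR, a serum replacement, and FGF2. Cells were aggregated as spin embryoid bodies in APEL medium with BMP4, VEGF, SCF and Activin until day 4. After that FGF2 and IGF2 replaced Activin, and the other factors stayed. Unsorted cells gave 9 arrays, a single one per day (0 to 8). The other 4 held day 7 cells sorted into a CD34lo CD41lo fraction and 3 CD41- fractions that were CD34-, CD34lo or CD34hi. With 1 array per group the levels carry neither SD nor n, and the labels do not say how many cultures stood behind a sort.

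The arrays detected between 15134 and 17833 probes, 17493 in the CD34lo CD41- cells and 16481 in the CD34lo CD41lo cells, and their number limits the precision. The median difference over all genes tested was 0.06 on the log2 scale. The 12 reference genes, among them GAPDH and ACTB, had no member, with differences from -0.46 to 0.66 and a median of 0.05. Between unsorted days 6 and 7, 0.534% of genes stood at least 2-fold higher and 0.188% at least 2-fold lower. From day 7 to day 8 these shares were 0.551% and 0.156%.

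The genes that define the gate differed as their names say. ITGA2B was not detected in the CD34- CD41- cells (4.70, a normalized log2 level, as are all levels given here) or in the CD34hi CD41- cells (5.26). It stood at 5.96 in the CD34lo CD41- cells and 9.19 in the CD34lo CD41lo cells, a 9.4-fold difference within the pair. CD34 stood at 8.52 in the CD34-, 10.58 in the CD34lo CD41-, 12.88 in the CD34hi and 10.06 in the CD34lo CD41lo cells. The pair therefore lay close together in CD34 RNA, at 1.43-fold, and the CD41- partner was not free of ITGA2B RNA. For these sorted populations, fewer cells of a type and less RNA per cell cannot be told apart. In unsorted cells ITGA2B was detected on 1 of 9 days, day 8 (5.82).

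**Figure D1:**
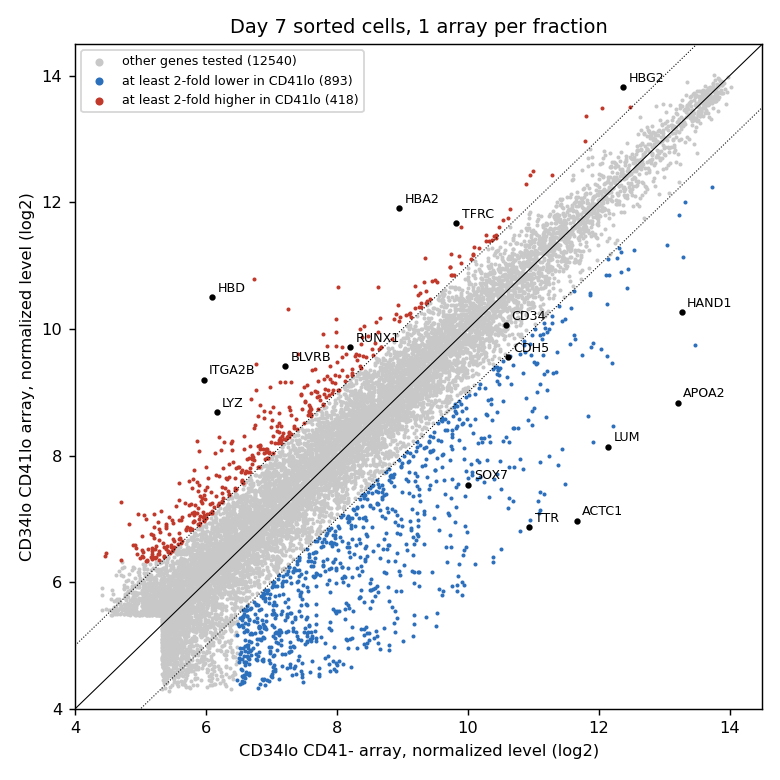
Normalized log2 level of each gene tested on the CD34lo CD41- array (x axis) against the CD34lo CD41lo array (y axis), 1 point per gene, with 2-fold limits dotted and equality as a solid line. The 418 higher members are red and the 893 lower members blue, and of the labelled genes HBD, ITGA2B and HBA2 stand farthest above the line while ACTC1, APOA2, TTR and LUM stand far below it. Grey points beyond the dotted lines are genes whose undetected side was raised to the detection floor of its array.

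Promoters of 6 members are shown because they bracket the contrast: HBD, ALAS2 and EPB42 are red cell genes, ITGA2B is the gate itself, and FGB and APOA2 are plasma protein genes of the lower side. They were chosen after their values were seen. Each is the 250 bases before the RefSeq transcription start in GRCh38.p14, written 5′ to 3′ on the strand of the gene. Capitals mark the letters searched, on both strands: AGATAA for GATA factors, TGTGGT for RUNX factors, CCNCNCCC for KLF factors, GTTAAT for HNF1 and TGTTTAC for FOXA factors.
HBD, chr11:5234484-5234733, minus strand: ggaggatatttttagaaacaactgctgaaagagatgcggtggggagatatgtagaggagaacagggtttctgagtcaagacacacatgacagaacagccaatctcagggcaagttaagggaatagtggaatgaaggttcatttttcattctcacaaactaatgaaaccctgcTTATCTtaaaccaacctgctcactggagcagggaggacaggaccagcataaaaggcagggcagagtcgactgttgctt
ALAS2, chrX:55030978-55031227, minus strand: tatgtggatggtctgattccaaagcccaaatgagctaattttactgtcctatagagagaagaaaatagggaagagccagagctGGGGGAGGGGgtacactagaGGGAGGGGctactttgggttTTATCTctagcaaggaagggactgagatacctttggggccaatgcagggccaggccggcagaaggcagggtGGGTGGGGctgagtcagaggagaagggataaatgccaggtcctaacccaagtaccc
EPB42, chr15:43221019-43221268, minus strand: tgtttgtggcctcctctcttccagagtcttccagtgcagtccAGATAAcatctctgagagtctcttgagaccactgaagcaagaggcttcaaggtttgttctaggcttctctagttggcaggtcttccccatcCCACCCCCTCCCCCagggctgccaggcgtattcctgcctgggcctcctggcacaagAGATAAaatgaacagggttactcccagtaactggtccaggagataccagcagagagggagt
ITGA2B, chr17:44389650-44389899, minus strand: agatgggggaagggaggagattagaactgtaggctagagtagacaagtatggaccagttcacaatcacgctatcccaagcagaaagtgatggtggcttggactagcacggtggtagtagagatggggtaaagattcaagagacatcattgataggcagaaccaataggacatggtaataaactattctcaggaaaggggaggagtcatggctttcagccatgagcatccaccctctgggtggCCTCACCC
FGB, chr4:154562730-154562979, plus strand: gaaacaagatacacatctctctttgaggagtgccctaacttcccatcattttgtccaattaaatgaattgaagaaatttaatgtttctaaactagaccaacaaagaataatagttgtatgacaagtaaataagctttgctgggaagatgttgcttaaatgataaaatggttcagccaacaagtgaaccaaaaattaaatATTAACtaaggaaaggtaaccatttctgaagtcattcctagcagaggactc
APOA2, chr1:161223629-161223878, minus strand: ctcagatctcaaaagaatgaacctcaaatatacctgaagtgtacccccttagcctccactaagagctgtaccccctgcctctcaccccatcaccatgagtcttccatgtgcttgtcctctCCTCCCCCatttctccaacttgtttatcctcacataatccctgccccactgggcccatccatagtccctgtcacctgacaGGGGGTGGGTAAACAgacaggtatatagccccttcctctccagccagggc

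The HBD window held the GATA letters once, starting at base -78 from the transcription start, and the EPB42 window held them at -208 and -61. In the ALAS2 window they lay at -127, with KLF matches at -167 and -165, which overlap, and at -147 and -56. The FGB window held the HNF1 letters at -51 and the APOA2 window the FOXA letters at -42, in a run of capitals that also contains a KLF match at -50. ITGA2B held 1 KLF match and none of the other letters, which says only that they are not in this window.

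Over all the promoters these letters were spread as follows. AGATAA was found in 8.92% of the 269 promoters of higher members that the table holds, 6.64% of the 633 of lower members, 4.59% of the 9246 of genes tested and 9.37% of all 27305 promoters. TGTGGT was found in 7.43% of higher and 7.74% of lower members against 7.54% of genes tested and 10.9% of all. The KLF letters were found in 63.9%, 72.5%, 70.6% and 52.4% of the same 4 sets. GTTAAT was found in 4.46% of higher members, 3.95% of lower members, 3.3% of genes tested and 6.22% of all, and TGTTTAC in 1.86%, 2.21%, 2.05% and 2.98%. These shares are descriptions of letters, with no test.

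Globin genes led the higher side. HBD, the delta globin of adult haemoglobin A2, was not detected in the CD34- (4.97) or CD34hi cells (4.65), stood at 6.09 in the CD34lo CD41- cells and at 10.50 in the CD34lo CD41lo cells. This difference of 4.41 on the log2 scale, 21.3-fold, was the largest among the higher members. The transcribed pseudogene beside it, HBBP1, followed with 6.73 against 10.78, a 16.6-fold difference. HBB, the adult beta globin, was 6.43-fold higher (6.76 against 9.45), and HBQ1, the theta globin, 6.24-fold (8.01 against 10.65).

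All 9 called globin genes were higher, of 10 tested, and the median of the list was 2.10 against 0.06 over all genes tested. Alpha globins HBA1 and HBA2 were 8.4-fold and 7.74-fold higher, and a further HBA2 probe gave a difference of 2.69 on the log2 scale. The embryonic and fetal globins had smaller differences and were already bright in CD41- cells. HBE1, the embryonic beta-like globin, stood at 11.13 in the CD34-, 11.80 in the CD34lo CD41-, 7.64 in the CD34hi and 13.36 in the CD34lo CD41lo cells, a 2.95-fold difference within the pair. HBZ, HBG2 and HBG1 were 2.83-fold, 2.72-fold and 2.7-fold higher. In the CD34lo CD41lo cells HBG2 (13.82), HBG1 (13.49) and HBE1 (13.36) lay close to the highest level of any probe on that array (14.02), and saturation was not tested. HBM, undetected in the CD41- cells, was at least 1.38-fold higher and did not meet the rule. HBA1 and HBA2, and HBG1 and HBG2, are near-identical copies, and HBD and HBB are related but less alike, so a probe may read its neighbour's RNA.

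Other red cell genes were higher beside the globins, with 11 of 20 red cell membrane and chaperone genes at least 2-fold higher, none at least 2-fold lower and a list median of 1.05. BLVRB, a biliverdin reductase of red cells, stood at 6.45 in the CD34-, 7.21 in the CD34lo CD41-, 5.95 in the CD34hi and 9.42 in the CD34lo CD41lo cells, 4.62-fold higher within the pair. The glycophorin genes GYPB (2.27-fold) and GYPE (2.04-fold) were higher too, and their sequences are close enough for probes to cross. TFRC, the transferrin receptor that brings in iron, was 3.6-fold higher (9.82 against 11.67). CA1, a carbonic anhydrase of red cells, was 3.6-fold higher and ANK1, the ankyrin of the red cell skeleton, at least 2.7-fold. The globin chaperone AHSP was under the limit at 1.92-fold, and the erythropoietin receptor EPOR was level (8.19 against 8.17).

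Within haem synthesis 3 of 12 genes met the rule, with a median of 0.60. ALAS2, the enzyme that starts the pathway in red cells, was 2.81-fold higher (10.94 against 12.44), FECH, which inserts the iron, 2.4-fold and PPOX 2.15-fold. ALAS1, the form used in other tissues, stood at 5.75 and 5.58.

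Platelet genes formed the second group. Of 19 megakaryocyte and platelet genes 12 were at least 2-fold higher, 2 at least 2-fold lower, and the median was 1.25. ITGB3, the beta chain that pairs with CD41, was undetected in the CD34- (4.69) and CD34hi cells (5.15) and stood at 5.86 in the CD34lo CD41- and 8.24 in the CD34lo CD41lo cells, a 5.21-fold difference. TUBB1, the platelet beta tubulin, and PLEK, a protein kinase C substrate of platelets, were detected in the CD34lo CD41lo cells alone among the 4 fractions. Within the pair TUBB1 was at least 3.47-fold and PLEK at least 3.33-fold higher. GP9 and GP1BA, parts of the von Willebrand factor receptor, were 3.14-fold and 2.48-fold higher, but GP9 stood higher still in the CD34hi cells. Of 13 genes of this list tested between the CD34hi and CD34- cells, 8 were at least 2-fold higher in CD34hi cells and 0 in CD34- cells. Over all genes 7.51% were at least 2-fold higher in CD34hi cells. The chemokine PPBP, abundant in platelets, stood at 5.95 and 6.20. The 2 lower genes were VWF (2.57-fold) and CD9 (at least 2.49-fold), both of which endothelial cells also express.

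Blood transcription factors were higher in part. Of 27 tested 9 were at least 2-fold higher and 3 at least 2-fold lower, with a median of 0.57. IKZF1, a zinc finger factor of blood progenitors, was 3.85-fold higher (6.27 against 8.22). GATA1, the main factor of red cells and megakaryocytes, was undetected in the CD34- and CD34hi cells and stood at 6.74 and 8.44 in the pair, 3.25-fold higher. KLF1, a globin gene activator, was 2.94-fold and SPI1, a myeloid factor, 2.64-fold higher. RUNX1, the gene of the reporter, stood at 4.90 and undetected in the CD34-, 8.20 in the CD34lo CD41-, 8.70 in the CD34hi and 9.71 in the CD34lo CD41lo cells, 2.85-fold higher within the pair. NFE2 (2.38-fold), GFI1B (2.29-fold) and LMO2 (2.22-fold) met the rule, while TAL1 (1.95-fold), GATA2 (1.89-fold) and MYB (1.4-fold) did not. Lower were CEBPA (3.67-fold), a factor of myeloid cells and liver, MECOM (3.09-fold), a factor of stem cells and endothelium, and BCL11A (2.49-fold), a repressor of fetal globin. A further probe gave 0.04 on the log2 scale for MECOM and -1.46 for BCL11A.

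Leukocyte and myeloid genes were also on the higher side. Of 21 leukocyte genes 11 were at least 2-fold higher and none at least 2-fold lower (median 1.13), and of 16 myeloid and mast cell genes 8 were higher and none lower (median 0.82). LYZ, the lysozyme of monocytes and granulocytes, was undetected in the CD34- cells (4.88) and stood at 6.16 in the CD34lo CD41-, 7.58 in the CD34hi and 8.68 in the CD34lo CD41lo cells. Its 5.74-fold difference came with a further probe at 1.34 on the log2 scale. TYROBP and FCER1G, adaptor chains of immune receptors, were 4.82-fold and 3.91-fold higher. HDC, which makes histamine in mast cells and basophils, was 4.38-fold higher (7.78 against 9.91), and CD33, a myeloid surface lectin, 3.33-fold. CSF1R, the macrophage growth factor receptor, was at least 2.91-fold higher but stood almost as high in the CD34hi cells (6.69) as in the CD34lo CD41lo cells (6.87).

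Of 9 genes on the cytokine receptor list 3 met the rule, among them CSF1R and GP1BA, the latter a platelet adhesion receptor rather than a cytokine receptor, and the list median was 0.11. KIT, the receptor of the SCF in the medium, stood at 8.01 in the CD34-, 7.59 in the CD34lo CD41-, 10.06 in the CD34hi and 6.70 in the CD34lo CD41lo cells, the lowest of the 4. It was 1.85-fold lower within the pair, under the limit.

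The 15 largest differences on the higher side also held genes outside these lists. RTN1, a reticulon of the endoplasmic reticulum, was 4.59-fold higher (6.69 against 8.89), though a further probe gave a difference of 0.19 on the log2 scale. WNT5B, a non-canonical WNT ligand, stood at 5.68 in the CD34-, 7.41 in the CD34lo CD41-, 5.78 in the CD34hi and 9.60 in the CD34lo CD41lo cells. LY6G6D was 4.54-fold higher (7.98 against 10.16). MATK, a kinase that restrains SRC family kinases in megakaryocytes and other blood cells, was 4.52-fold higher, and its level in the CD41- partner (5.90) was below that of the CD34- cells (6.34).

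Cell cycle genes stood slightly higher as a list. Of 29 tested 28 had a difference above 0, the median was 0.68, and 6 met the rule, none in the other direction. These 6 were RRM2 (2.78-fold), a ribonucleotide reductase subunit, the replicative helicase subunits MCM2 (2.66-fold), MCM5 (2.49-fold) and MCM4 (2.2-fold), the S phase cyclin CCNE2 (2.53-fold), and the sliding clamp PCNA (2.3-fold). MCM2 stood at 8.10 in the CD34-, 8.48 in the CD34lo CD41-, 8.08 in the CD34hi and 9.89 in the CD34lo CD41lo cells. Of the mitotic genes on the list, AURKA (1.9-fold), CCNB1 (1.37-fold) and TOP2A (1.28-fold) were under the limit. Outside the list and named after their values were seen, the mitotic genes INCENP (2.34-fold) and HASPIN (2.16-fold) met the rule. CDKN1C, a cyclin-dependent kinase inhibitor, was 1.79-fold lower and the only one of the list below 0.

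**Figure D2:**
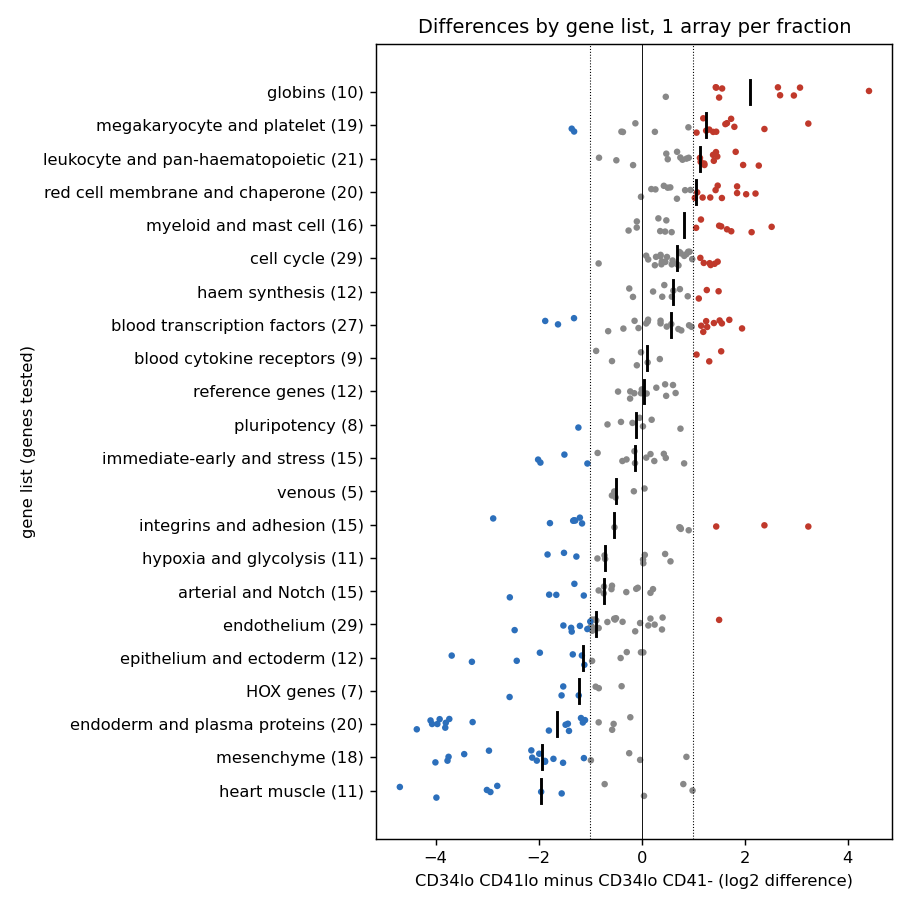
Difference between the CD34lo CD41lo and the CD34lo CD41- array (log2, x axis) for the genes of 22 lists (y axis, number tested in brackets), 1 point per gene, red and blue for members and grey for the rest, with the list median as a black bar and 2-fold limits dotted. Globin, platelet and leukocyte lists lie to the right, endoderm, mesenchyme and heart muscle lists to the left, and the reference genes around 0.

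Endothelial genes were lower in part, and mostly by less than 2-fold. Of 29 tested 7 were at least 2-fold lower and 1 at least 2-fold higher, with a median of -0.88, and of 15 arterial and Notch genes 5 were lower and none higher (median -0.73). SOX7, a transcription factor of early endothelium, stood at 7.02 in the CD34-, 10.01 in the CD34lo CD41-, 12.29 in the CD34hi and 7.54 in the CD34lo CD41lo cells, 5.53-fold lower within the pair, and a further probe gave -1.76 on the log2 scale. HEY1, a Notch target, was 5.9-fold lower (9.08 against 6.51), though a further probe gave -0.62. KDR, the main VEGF receptor, was 2.87-fold lower, and NRP1, its coreceptor, 3.48-fold. CDH5, the endothelial cadherin, stood at 6.75, 10.61, 12.19 and 9.55 in the CD34-, CD34lo CD41-, CD34hi and CD34lo CD41lo cells, and its 2.08-fold difference left it well above the CD34- cells.

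Several other endothelial genes did not meet the rule in either direction. PECAM1 (10.21 against 10.61), ICAM2 (10.76 against 10.89) and ESAM (8.73 against 8.90), all adhesion molecules of endothelium that some blood cells share, were level within the pair. SOX18 (1.41-fold) and TEK (1.87-fold) were lower by less than the limit. F2RL3, a thrombin receptor that platelets also carry, was the 1 gene of the list that was higher (2.83-fold). None of the 5 venous genes met the rule. Of the 15 integrin and adhesion genes 3 were higher, ITGA2B, ITGB3 and the blood kindlin FERMT3 (2.72-fold), and 7 were lower, led by ITGB5 (7.38-fold) and ITGA3 (3.44-fold), while FERMT2, the kindlin of other tissues, was 2.52-fold lower.

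Large differences were more frequent on the lower side, and genes of endoderm, mesenchyme and heart muscle were among them. A 4-fold difference was reached by 280 of the 893 lower and 20 of the 418 higher members, and an 8-fold one by 80 and 4. ACTC1, the cardiac alpha actin, had the largest difference of all (25.9-fold) and stood at 12.24 in the CD34-, 11.66 in the CD34lo CD41-, 7.85 in the CD34hi and 6.97 in the CD34lo CD41lo cells. MYL7, a cardiac myosin light chain, was 15.9-fold and the mesoderm factor HAND1 8.04-fold lower, and 7 of 11 heart muscle genes were at least 2-fold lower (median -1.95). The embryonic myosin light chain MYL4 stood the other way at 1.98-fold higher, just under the limit.

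Of 20 endoderm and plasma protein genes 16 were at least 2-fold lower and all 20 had a difference below 0, with a median of -1.64. APOA2, an apolipoprotein of liver and yolk sac, stood at 13.75 in the CD34-, 13.20 in the CD34lo CD41-, 8.96 in the CD34hi and 8.84 in the CD34lo CD41lo cells, 20.6-fold lower within the pair. FOXA2, a pioneer factor of endoderm, was 17.2-fold lower, TTR, a thyroid hormone carrier, 16.8-fold, FGB, a fibrinogen chain, 15.6-fold and AFP, the fetal plasma protein, 15.2-fold. A further FGB probe gave -2.52 on the log2 scale. Among 12 epithelial genes 7 were lower, led by the keratins KRT19 (12.9-fold) and KRT8 (9.83-fold), and CDH1, the epithelial cadherin, was at least 5.38-fold lower.

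Mesenchymal genes followed, with 14 of 18 at least 2-fold lower, none higher and a median of -1.94. LUM, a collagen-binding proteoglycan, was 16.1-fold lower (12.14 against 8.14), with a further probe at -1.88 on the log2 scale. COL6A3 (13.7-fold), COL3A1 (13.5-fold) and PDGFRA (10.9-fold), a receptor of mesenchymal cells, were also lower. The 15 largest differences included HAS2, which makes hyaluronan (16-fold), MFAP4, a microfibril protein (16-fold), RGS4, a regulator of G protein signalling (15.9-fold), FLRT3 (15.9-fold) and the teneurin TENM4 (15.8-fold). CST1, a cystatin (16.7-fold), AKR1B10, an aldo-keto reductase (16.3-fold), and HTRA1, a secreted protease (at least 16.5-fold), completed them. HAS2 and FLRT3 were still bright in the CD34hi cells (8.63 and 9.76), where TTR and FOXA2 stood at 6.69 and 5.46. Further probes gave -2.22 on the log2 scale for HAS2, -3.73 for COL6A3 and -4.23 for PDGFRA.

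Marker genes of other cells moved with the contrast. Of 22 endoderm genes measured 22 were detected in the CD34-, 20 in the CD34lo CD41-, 12 in the CD34hi and 10 in the CD34lo CD41lo cells, and their summed log2 levels were 206.6, 181.9, 129.9 and 126.8. Of 19 mesenchyme genes 19, 18, 16 and 13 were detected, with sums of 182.9, 180.9, 161.7 and 144.3. For 34 endothelial genes the counts were 23, 29, 34 and 25, with sums of 212.4, 268.0, 335.7 and 247.4. The part of these other cells in each difference was not tested. The CD34lo CD41lo cells themselves still showed APOA1 (9.74), COL1A1 (9.90) and HAND1 (10.26).

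**Figure D3:**
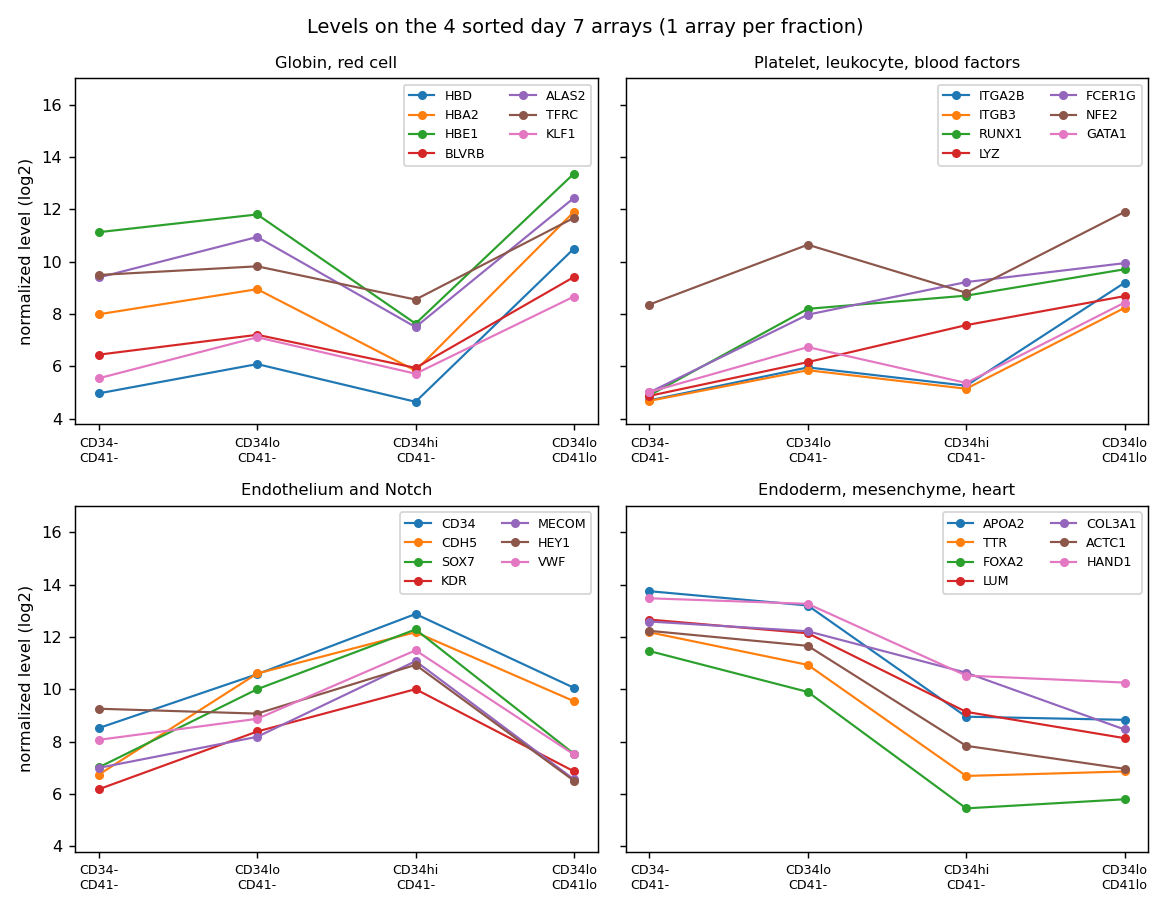
Normalized log2 levels (y axis) of 28 genes on the 4 sorted day 7 arrays (x axis), 1 point per array and gene, with lines that only join the points of a gene. HBD, ITGA2B and ITGB3 are high in CD34lo CD41lo cells alone, SOX7 and KDR peak in CD34hi cells, and APOA2, TTR and FOXA2 are low in both CD34hi and CD34lo CD41lo cells.

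Some smaller lists were lower as well. Of 7 tested genes on a list of the HOXA and HOXB clusters, all of them HOXB genes, 4 were at least 2-fold lower (median -1.22), led by HOXB8 (5.92-fold, 8.72 against 6.15). HOXC6, outside that list and named after its values were seen, was lower as well (2.14-fold, 6.67 against 5.57). Of 15 immediate-early and stress genes 4 were lower, among them IER3 (4.04-fold) and JUN (3.91-fold), whereas FOS (1.3-fold) and EGR1 (1.23-fold) were not (list median -0.14). Of 11 hypoxia and glycolysis genes ADM (3.55-fold), NDRG1 (2.85-fold) and VEGFA (2.41-fold) were lower, while the glycolytic genes ENO1, LDHA and PGK1 were level. A further VEGFA probe gave -0.70 on the log2 scale, under the limit. L1TD1, an RNA-binding protein of stem cells, was the 1 lower gene among 8 pluripotency genes (2.35-fold).

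The difference between the CD34hi CD41- and CD34- CD41- arrays was not part of the rule, although both arrays entered the joint normalization and the choice of each gene's probe. Over all 14443 genes tested 7.51% stood at least 2-fold higher in CD34hi than in CD34- cells, and 9.50% at least 2-fold lower. Of the 365 higher members tested there, 81 (22.2%) were higher in CD34hi cells and 15 (4.11%) were higher in CD34- cells. The 81 included FCER1G (a difference of 3.93 on the log2 scale), FERMT3 (3.52), RUNX1 (3.41), GP9 (3.40) and LMO2 (3.12). The 15 included HBZ (-4.42), HBE1 (-3.49), HBG2 (-2.68), HBA2 (-2.15) and ALAS2 (-1.89). Of 8 globin genes tested in this second pair 6 were at least 2-fold higher in CD34- cells, HBB (-0.40) and HBQ1 (-0.61) were under the limit, and HBD was undetected in both fractions.

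The 893 lower members were split likewise. Of these, 491 (55%) stood at least 2-fold higher in CD34- and 103 (11.5%) in CD34hi cells, and their median difference was -1.24 against 0.03 over all genes. The 491 included FOXA2 (-6.01), MTTP (-5.58), TTR (-5.49) and KRT19 (-4.30). CDH5 (5.44), SOX7 (5.27), CLEC14A (4.32), MECOM (4.08) and KDR (3.82) were among the 103. Both pairs rest on single arrays, so these shares have no test.

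**Figure D4:**
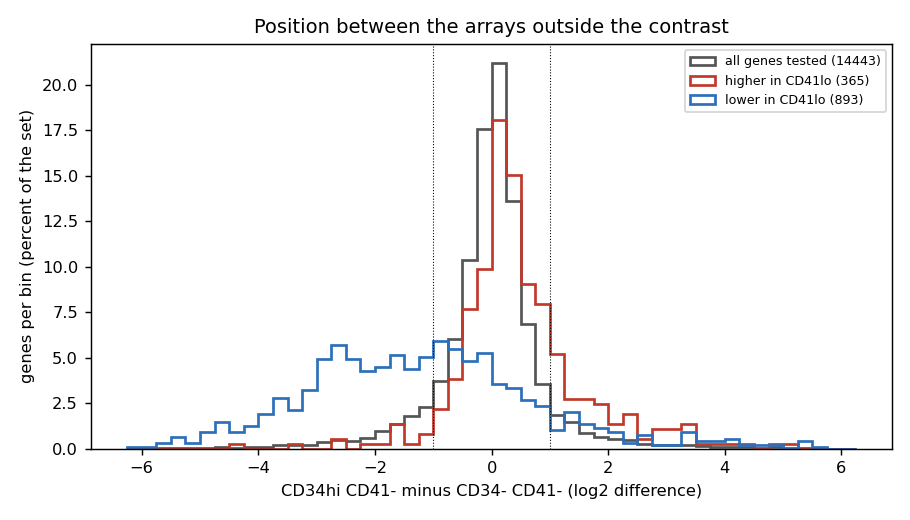
Distribution of the difference between the CD34hi CD41- and the CD34- CD41- array (log2, x axis) as percent of each set per bin of 0.25 (y axis), for all 14443 genes tested, 365 higher and 893 lower members, with 2-fold limits dotted. The lower members spread far to the left, and the higher members lie slightly to the right of all genes.

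The CD34lo CD41lo array was also set against each of the other fractions. These comparisons share that array, whose values chose the members, so the counts are given side by side and nothing is read from them. Of the 418 higher members 379 were also at least 2-fold higher than in CD34- cells, a limit that 9.02% of all genes tested met, and 302 than in CD34hi cells (5.93% of all). Of the 893 lower members 792 were at least 2-fold lower than in CD34- cells (11.9% of all) and 425 than in CD34hi cells (7.93% of all). In 9 of the 418 higher members the CD34hi cells stood above the CD34lo CD41lo cells, as for GP9 (8.69 against 7.54). The CD34lo CD41- cells stood above the CD34- cells in 355 of the 418 higher members (84.9%, against 54.7% of genes tested) and below them in 717 of the 893 lower members (80.3% against 45.2%). The rule used the CD34lo CD41- array too, so these counts are descriptions.

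The 9 unsorted arrays gave a further measure, tied to the members through the joint normalization and the choice of each gene's probe on the sorted arrays. Of 418 higher members 327 (78.2%) were detected in unsorted day 7 cells, against 883 of 893 lower members (98.9%) and 90% of genes tested. Each gene was fitted over days 0 to 8 with a smooth curve in limma, and the fitted change from day 4 to day 8 was tested with Benjamini-Hochberg adjustment over all 16449 genes, which called 5.25% risen and 2.83% fallen (adjusted p below 0.05 and at least 2-fold). Because each day has a single array, the standard errors (SE) and adjusted p values rest on departures from the curve, not on differences between cultures. Of the 377 higher members fitted 37 (9.81%) rose and 50 (13.3%) fell. Of the 890 lower members fitted 206 (23.1%) rose and 38 (4.27%) fell. The median fitted changes were -0.17 and 0.39, against -0.05 over all genes.

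Among the higher members the globins rose most. HBE1 rose by 8.69 ± 0.91 on the log2 scale (SE, limma adjusted p = 0.000764), HBG2 by 7.84, HBZ by 7.67 and HBA2 by 6.76, and HBG1 rose as well. HBD was not detected on any day from 0 to 6 and rose by 4.63 ± 0.43 (limma adjusted p = 0.000529), a fit that includes its undetected levels. In all, 9 globin genes rose, HBB and HBQ1 by the least (1.40 and 1.94), and neither of these passed without day 7 (adjusted p = 0.0513 and 0.0634). ALAS2 rose by 3.58 ± 0.36, and TUBB1 (1.26), TYROBP (1.04) and AIF1 (1.68), a macrophage protein, also rose.

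For ITGA2B itself the fitted change was 0.81 ± 0.36 (SE, limma adjusted p = 0.209). That of LYZ was 0.94 ± 0.19 (limma adjusted p = 0.0155), under 2-fold. RUNX1 (0.17) and GATA1 (0.45) did not pass either. ITGB3 was detected on 0 of 9 days and was one of the 41 higher members that were not fitted.

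Of the 6 cell cycle genes among the higher members, 4 moved the other way over time, against 16 of all 29 on the list that fell. RRM2 fell by 1.69 ± 0.32 (SE, limma adjusted p = 0.0123), MCM5 by 1.58, MCM4 by 1.59 and MCM2 by 1.45, whereas PCNA and CCNE2 were not called. The 5 largest falls were those of GAL, a neuropeptide (2.52), COCH (2.44), HES6, a HES family factor (2.14), HELLS, a chromatin remodeller (1.97), and PKMYT1, a kinase that holds back mitosis (1.93). Levels of HES6 in the fractions were 6.72 in the CD34-, 6.98 in the CD34lo CD41-, 6.43 in the CD34hi and 9.09 in the CD34lo CD41lo cells. The fall of GAL did not pass without day 7 (adjusted p = 0.0909).

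Lower members that rose in unsorted cells were led by plasma protein genes. SERPINA1, a protease inhibitor, rose by 8.67 ± 0.63 (SE, limma adjusted p = 0.000147), TTR by 8.08, FGG by 6.38, AFP by 6.20 and APOB by 6.09. Of the 16 lower endoderm genes 13 rose, against 17 of the 22 fitted on the whole list. COL3A1 (4.22) and DCN (5.18) were among 5 of the 14 lower mesenchyme genes that rose, against 7 of the 19 fitted on that list. CDH5 rose by 2.37 and MECOM by 2.84, neither of which passed without day 7 (adjusted p = 0.115 and 0.099). Among the lower members that fell most were EOMES, a factor of the primitive streak (5.19), DKK1, a WNT inhibitor (4.83), the zinc finger factor ZIC2 (4.08) and the homeobox factor VENTX (3.14). The fall of DKK1 did not pass without day 7 (adjusted p = 0.122), nor that of EOMES with a stiffer curve of 2 degrees of freedom (adjusted p = 0.0582).

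**Figure D5:**
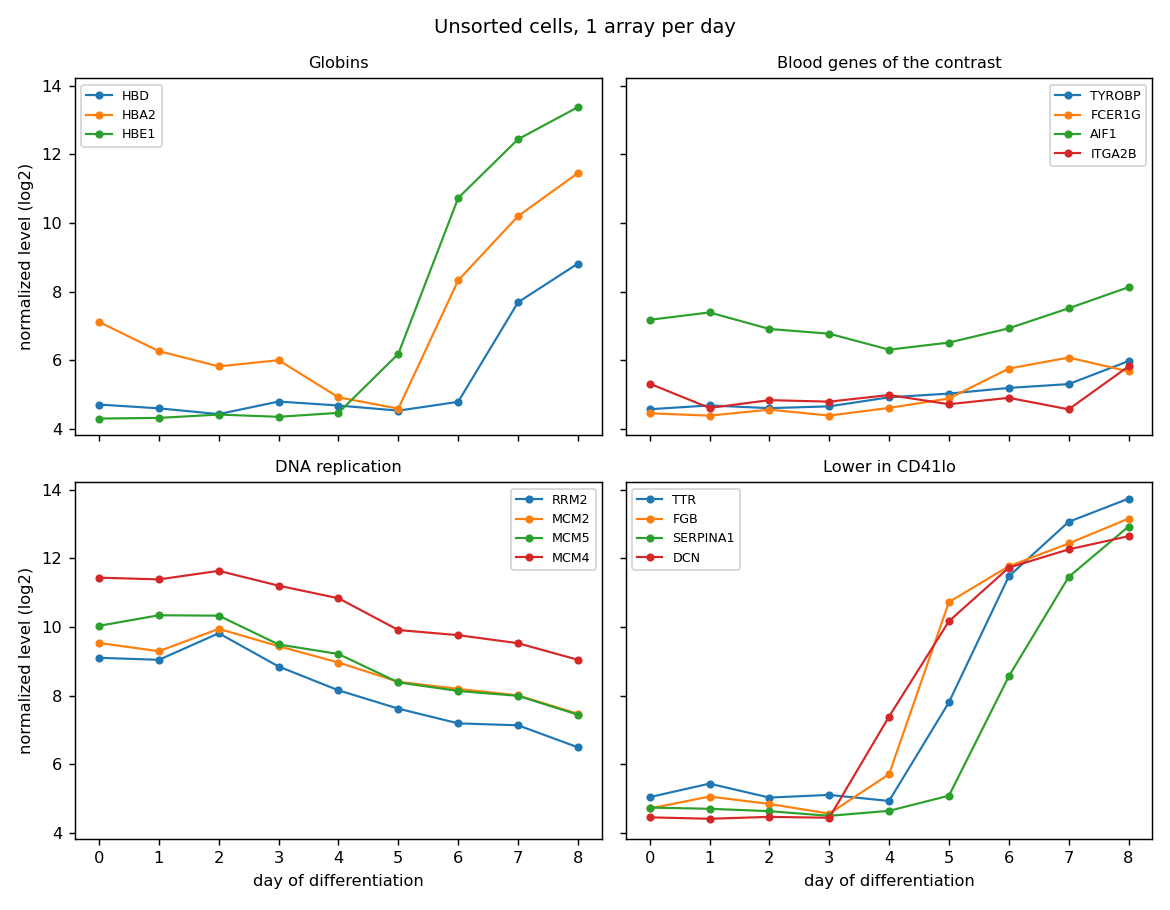
Normalized log2 levels (y axis) of 15 members on the 9 unsorted arrays, 1 per day (x axis). Globins and plasma protein genes climb after day 4 or 5, replication genes decline from day 2, and ITGA2B stays near the detection floor until day 8.

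Near the 2-fold limit the calls rest on small steps. Just inside on the higher side lay H2AC25, a histone gene (1.0012 on the log2 scale), and just outside VRK1, a kinase (0.9994). On the lower side EGFL7, a matrix protein of endothelium (-1.0002), and CHDH, choline dehydrogenase (-1.0001), lay inside, and TNFRSF21, a death receptor (-0.9995), outside. For 46 higher and 263 lower members the dim side was not detected, so their fold is a lower bound. Where a member had further detected probes, 115 of 116 such probes of higher members and 276 of 302 of lower members had the same direction, 56 and 158 of them at least 2-fold, and none was at least 2-fold the other way. These probes read the same RNA on the same 2 arrays that chose the members, so they are not replicates. The same share over all genes was not computed, and nothing is read from these counts.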

How the data were processed

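The authors deposited non-normalized probe intensities of 13 Illumina arrays, with a detection value per probe, a fraction from 0 to 1 per the file headers, and log2 values in the series matrix, for which the sources used here do not give the transformation. The submitters' processing notes name GenomeStudio 2010.2 and lumi. The deposited intensities reach -28.8, so a background had been subtracted. They were background corrected and quantile normalized jointly with neqc of limma 3.58.1 (R 4.3.3, offset 16). Detection p was 1 minus the deposited fraction, with 0.01 as threshold. Columns with short names were assigned by name and checked against the matrix (rank correlation at least 0.999995 with the own sample, at most 0.904 with another). Quantile normalization assumes like distributions in all arrays, and neqc's offset shrinks differences of dim probes.

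Of 47231 probes 1 was dropped, and 4649 symbols were updated through RefSeq names. A gene was read by its brightest probe over the 4 fractions among those detected on at least 1 of them, which left 15135 genes, 13851 tested in the pair. An undetected dim side was raised to the detection floor, the lowest level of detected probes on that array (5.29 to 5.73 over all arrays). Changes over days were fitted in limma with natural splines of 3 degrees of freedom (5 residual degrees of freedom, 3.82 prior). These fits used the normalized levels without the floor, so their sizes are not on the same footing as the folds of the pair. The 9 unsorted arrays lay on another chip than the sorted ones, so levels across them share the normalization alone, and both arrays of the contrast lay on one chip. The fit was tested on simulated data of 16449 genes. There a day 4 to 8 change was called in 38% of genes at 2-fold (1 on the log2 scale) and 100% at 4-fold (2). On the arrays themselves, larger fitted changes of LUM (2.48 ± 0.88, SE, limma adjusted p = 0.116) and CST1 (-4.40 ± 1.22, limma adjusted p = 0.0544) were not called. Whether the simulated shares hold for genes with SEs of that size was not tested. Promoters were those of the first start listed per gene in RefSeq, GRCh38.p14.

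Members and gene lists were chosen with earlier results of these data known. Genes named are the markers, the 15 largest differences in each direction, genes on 23 lists, those at the limit, and the 5 largest fitted changes in each direction. The lists covered platelet, globin, haem, red cell, blood factor, leukocyte, myeloid, receptor, endothelium, arterial, venous, mesenchyme, endoderm, epithelium, heart, pluripotency, cell cycle, stress, hypoxia, integrin, HOX, reference and sort genes. Alternatives were another scale, correction, offset, filter, probe rule, threshold, curve and the removal of single days. Some genes that the naming rule covers are not reported here.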

Additional observations from a re-analysis of the deposited data

How the results depend on the processing

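No member was called the other way in the settings tried: 0 of the 1311 members met the rule in the opposite direction under any of them. All settings reuse the same 2 arrays, and a change of sign below 2-fold was looked for in the named members alone. The number of higher members, 418, became 791 with the submitters' own normalized values, 234 with an offset of 50 and 20 at 4-fold, and lay between 304 and 493 in the other settings. The number of lower members, 893, became 280 at 4-fold and lay between 654 and 1135 otherwise. With the submitters' values all 418 and 893 members still met the rule, and the higher share of calls was 41.1% instead of 31.9%. The lower members that fell from day 4 to day 8, 38 in all, numbered 23 without day 5 and 22 without day 7, while over all genes those that fell numbered 327 and 293 instead of 465. The cause was not tested. The other counts of members over days and between the CD34hi and CD34- arrays stayed within 1.5 times. Of 158 named members 27 came under 2-fold in at least 1 of 8 settings, 22 of them with an offset of 50, and TFAP2A turned to a difference of 0.12 on the log2 scale when all its probes were averaged. No paired analysis was possible because every group is a single array and the labels number no replicates. Signal over background limits the dim genes: a fold with an undetected side is only a lower bound.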
